A study of Mus musculus with 18 samples.

Results

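RNA held in ribonucleoprotein particles (RNPs) was compared between the start and the end of the series, in pachytene spermatocytes and in elongating spermatids. The comparison rests on 6 of the 18 libraries, 3 of elongating RNPs and 3 of pachytene RNPs, which were chosen by the cell type, fraction and replicate number in their labels. All came from adult wild-type C57BL/6 mice (given as C57BL/6 J in the study's methods), so no allele or drug separates the groups, and every preparation was made in cycloheximide, which stops ribosomes on their mRNAs. Cells from several testes were pooled for each purification by sedimentation (STA-PUT), and the elongating spermatids were the least pure of the cell types by morphology. RNPs are the light, ribosome-free end of a sucrose gradient, and polysomes, mRNAs that carry many ribosomes, are its heavy end.

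Pachytene spermatocytes are meiotic cells whose homologous chromosomes are paired. Elongating spermatids are haploid cells that replace their histones with transition proteins and then protamines, and that build the acrosome, the flagellum and the condensed head. Transcription stops as the chromatin condenses, so mRNAs for late proteins are made early and kept in RNPs until they are translated. The protamine and transition protein mRNAs are the classical examples of such delayed translation. The comparison therefore asks which mRNAs the stored pool gained or lost between meiosis and the shaping of sperm.

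Each value is the FPKM of a gene (fragments scaled to transcript length and to the mapped fragments of the library), summed over the assembled transcripts that share a splice junction with the gene and lie on its strand, and divided by a factor per library. Coordinates are those of mm9. A transcript missing from the assembly of a library counts as 0, so a gene listed at 0 was not shown to be absent. The labels do not say which libraries came from separate purifications, and the p values measure the spread between these libraries only.

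The pachytene libraries stood apart from each other more than the elongating libraries did. Across the 10907 genes tested, the Pearson correlation of log2 values was 0.805 to 0.821 between elongating RNP libraries and 0.582 to 0.683 between pachytene RNP libraries, a description over genes that are not independent. Pachytene RNP replicate 1 correlated at 0.695 to 0.736 with the elongating libraries, higher than with either of the other pachytene libraries, at 0.595 and 0.683. The summed level of 19 elongating spermatid markers was 32949, 12422 and 10831 in elongating RNPs and 2549, 283 and 1283 in pachytene RNPs. Pachytene RNP replicate 1 thus had the highest sum of its group, and abundant markers weigh most in such a sum. Markers of Sertoli cells, the somatic nurse cells of the tubule, ran the other way, with sums over 23 genes of 538.6, 2196 and 494 in pachytene and 104, 80.4 and 64.4 in elongating RNPs. The lowest share of FPKM in matched spliced transcripts was 1.05%, in pachytene RNP replicate 3, and the highest was 8.13%, in elongating RNP replicate 1. The part that these other cells play in each result was not tested.

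Of 10907 genes, 175 rose (1.6%) and 25 fell (0.229%) in elongating RNPs, 200 in all (1.83%), at a Benjamini-Hochberg adjusted p under 0.05 in limma. The median size of the change on the log2 scale was 3.17 among genes that rose and 2.98 among those that fell, and no called change was smaller than 1.79. The 3 and 3 libraries did not overlap in 2101 genes that were higher (19.3%) and 1390 that were lower (12.7%), and 2473 genes had an unadjusted p under 0.05 (22.7%; 15.4% higher and 7.26% lower). The change was positive in 5944 genes (54.5%), with a median of 0.12. Counts for the lists below are to be read beside these shares. In bulk RNA, fewer cells of a type and less RNA per cell cannot be told apart. Called genes were therefore those of large, even change, and many mRNAs that moved in every library were not called. With quantile normalization 23 genes rose and 9 fell, and with FPKM as deposited 20 and 4.

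The number of calls moved with single libraries. Without elongating RNP replicate 1, 2 or 3 the calls were 0 and 0, 1 and 2, and 0 and 0 (higher and lower). Without pachytene RNP replicate 2 or 3 they were 0 and 0, and 1 and 0, whereas without pachytene RNP replicate 1 they were 661 and 100, with 171 of the 175 and 8 of the 25 among them. Adding the 6 polysome libraries of the same cell types to estimate the spread gave 962 higher (7.28%) and 325 lower (2.46%), with 173 of the 175 and 25 of the 25 among them. In each fit that left out a library, every one of the genes that rose and was still tested kept its positive sign. The 3 and 3 libraries did not overlap for any of these 175 genes, so apart from shifts in the library factors the sign could not turn. The kept sign therefore says nothing about stability. A count weighted by assembled length, chosen after seeing the data, gave 1095 higher (12.4%) and 503 lower (5.7%) of 8830 genes.

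**Figure D1:**
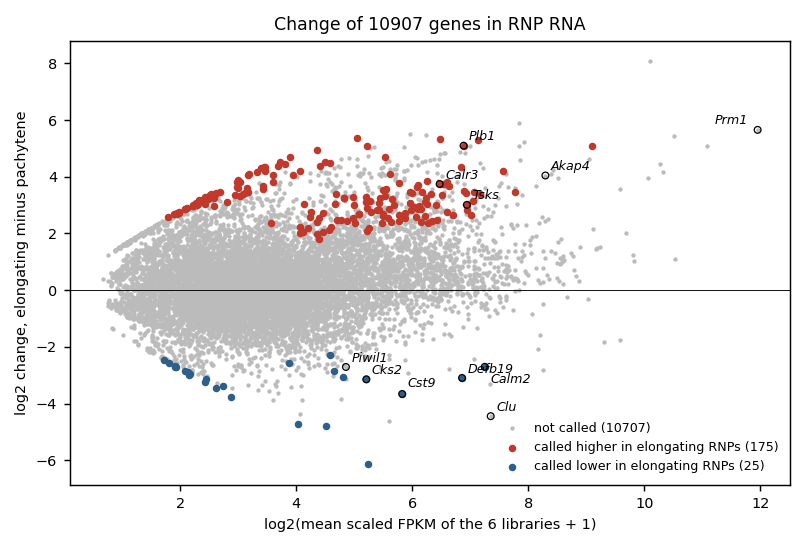
Each point is 1 of 10907 genes, with log2 of its mean scaled FPKM over the 6 libraries plus 1 on the x axis and its log2 change, elongating minus pachytene RNPs, on the y axis. The 175 genes called higher (red) and 25 called lower (blue) changed by at least 1.79 in size, and genes not called reach 8.08. *Prm1*, among the most abundant mRNAs and changed by 5.65, was not called.

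Among genes that rose, the largest changes were in genes that the pachytene libraries held at low level. *Plb1*, which encodes a phospholipase B, had scaled FPKM of 358, 82.0 and 247 in elongating RNPs and 7.09, 1.55 and 7.95 in pachytene RNPs (chr5:32535081-32668893). Its log2 change was 5.10 ± 0.72 (SE, n = 3 and 3; limma adjusted p = 0.0347). The lowest elongating library was above every pachytene library, as it was for all 175 genes that rose.

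*Paqr5*, a membrane progestin receptor gene, was at 245, 168 and 96.9 in elongating RNPs and 12.9, 0 and 3.59 in pachytene RNPs. *Prss58*, a trypsin-like protease gene, was at 92.8, 87.8 and 78.2 against 7.70, 0 and 3.40. Both were listed at 0 in pachytene RNP replicate 2, the library with the lowest sum of elongating spermatid markers. *Efcab10*, which encodes an EF-hand protein, was the most abundant gene that rose, at 1446, 679.5 and 1050 against 49.9, 13.2 and 36.4, but its change was -4.91 when only transcripts with a wholly annotated intron chain were counted. *Lin52*, a subunit of the DREAM complex, likewise went from 5.28 to -2.45 on the log2 scale under that count.

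Of the 175 genes that rose, 51 were listed at 0 in all 3 pachytene libraries, and their fitted changes depend on the value added before the logarithm. *Klk1b3*, a kallikrein gene with near-identical neighbours that could share its reads, was at 40.1, 13.3 and 19.7 in elongating RNPs. *Asb9*, an ankyrin repeat gene on the X chromosome, had values in every library, at 112, 129 and 136 against 12.9, 6.74 and 7.42, and rose by 3.71 ± 0.37 (limma adjusted p = 0.0311).

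Structural proteins of the sperm nucleus had some of the most abundant mRNAs of elongating RNPs, and none of the 12 genes tested was called. *Prm1*, protamine 1 (chr16:10796419-10796979), was at 12992, 5416 and 4416 in elongating RNPs and at 656, 10.3 and 326 in pachytene RNPs. *Prm2*, protamine 2, was at 6697, 729.9 and 1023 against 175, 2.55 and 99.6. The groups did not overlap for either gene, but the pachytene libraries spanned more than an order of magnitude.

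*Tnp1* and *Tnp2* encode the transition proteins that sit on DNA between histones and protamines. *Tnp1* was at 4666, 1398 and 907 in elongating and 483, 9.80 and 195 in pachytene RNPs. *Tnp2* was at 4233, 1665 and 929 against 335, 7.20 and 235, a log2 change of 4.43 ± 1.44 (limma adjusted p = 0.132). Pachytene RNP replicate 2 was the lowest library for all 4 of these mRNAs, and pachytene RNP replicate 1 the highest of its group. In all, 9 of the 12 had a positive change, and the median change was 1.75, against 0.12 over all genes tested. Groups did not overlap in 7, all 7 higher, against 19.3% of all genes tested.

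Linker histones without introns were measured only in the count that added genes with 1 exon. A transcript with 1 exon enters that count only where its assembly gives a strand, so a listed 0 can also be a transcript without one. *Hist1h1t*, which encodes the linker histone H1t of spermatocytes, fell from 189.7, 139 and 165 in pachytene RNPs to 7.34, 10.4 and 9.35 in elongating RNPs, a log2 change of -4.05 ± 0.34 (limma adjusted p = 0.0169). *H1fnt* and *Hils1*, linker histones of spermatids, lay the other way. *H1fnt* was at 322, 259.7 and 343 in elongating and 48.9, 2.44 and 16.7 in pachytene RNPs (adjusted p = 0.0597), and *Hils1* at 453, 381 and 375 against 124, 7.80 and 73.2 (adjusted p = 0.109). *Prm3*, a protamine-like gene next to *Prm2*, also fell in this count, from 57.7, 7.35 and 19.3 in pachytene RNPs to a listed value of 0 in each elongating library (adjusted p = 0.0448). It lay opposite to *Prm1* and *Prm2*, but whether its mRNA was assembled without a strand in elongating RNPs was not tested. The groups did not overlap for any of these 4 genes, of which *Hist1h1t* and *Prm3* were called.

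Of 17 genes for histone removal, 1 rose and none fell. *Cdyl*, a chromodomain protein that acts on histone acylation, was at 191, 166 and 75.5 in elongating and 17.2, 5.13 and 18.6 in pachytene RNPs (limma adjusted p = 0.0498), and its change was -0.18 when only wholly annotated intron chains were counted. The median of the list was -0.13.

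**Figure D2:**
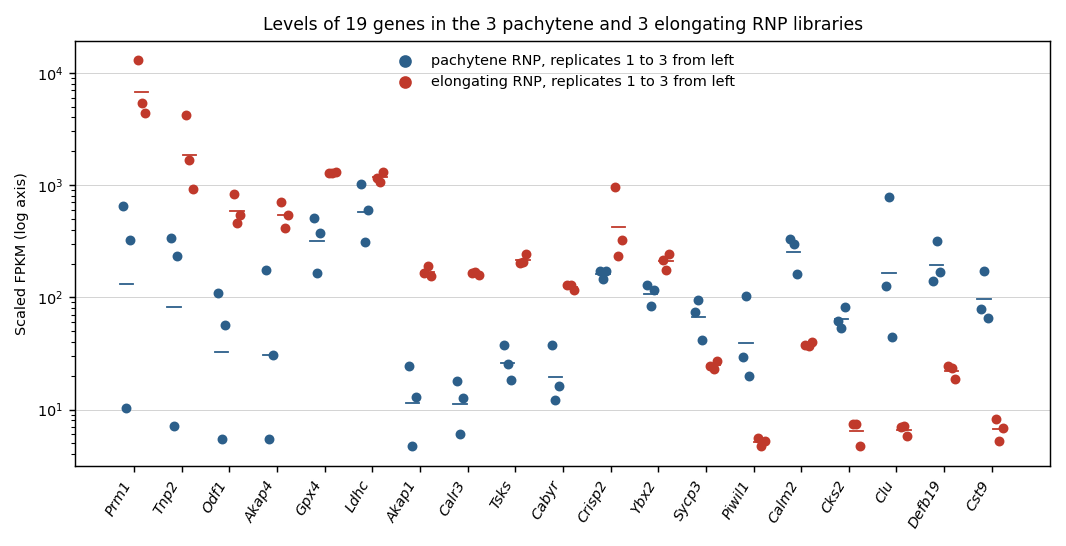
Scaled FPKM of 19 genes on a log axis, with 1 point per library, pachytene RNPs in blue and elongating RNPs in red, and a line at the geometric mean of each group. For *Prm1* and the other sperm structure genes on the left the elongating points sit above the pachytene points, and from *Sycp3* to *Cst9* on the right they sit below. Pachytene replicate 2 is low for *Prm1* (10.3) and high for *Clu* (785).

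Genes of the fibrous sheath and outer dense fibres, the cytoskeleton of the sperm tail, were mostly higher. All 24 tested had a positive change, 18 had groups that did not overlap, all higher, the median was 2.09, and 2 were called. Over all genes tested 19.3% did not overlap and were higher, and 1.6% were called higher. *Cabyr*, a calcium-binding protein of the fibrous sheath, was at 129.6, 129 and 116 in elongating and 37.5, 12.1 and 16.1 in pachytene RNPs, a log2 change of 2.62 ± 0.47 (limma adjusted p = 0.04995). *Cylc2*, in this list though cylicin 2 belongs to the sperm head cytoskeleton, was at 29.6, 28.5 and 36.6 against 8.46, 8.48 and 8.10. The replicates of *Cylc2* were close in both groups, and those of *Cabyr* only in elongating RNPs.

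More abundant members of the tail list were not called. *Odf1*, the main outer dense fibre protein, was at 838, 457 and 545 in elongating and 109, 5.51 and 56.7 in pachytene RNPs (limma adjusted p = 0.0760). *Akap4*, the main scaffold of the fibrous sheath, was at 713, 416 and 540.0 against 175, 5.49 and 30.4 (adjusted p = 0.0930). *Gpx4*, a selenoenzyme that becomes structural material of the midpiece, was at 1284, 1273 and 1320 against 511, 164 and 377 (adjusted p = 0.113). Pachytene RNP replicate 2 again held the least of each. Without pachytene RNP replicate 1, 11 members of the list were called higher, and with 12 libraries in the fit 15 were.

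Head shaping genes include those of the manchette, the microtubule skirt that moulds the nucleus. Of 22 tested, 2 rose, none fell, 17 had a positive change and the median was 1.11. Over all genes tested 1.6% rose. The list is wider than the manchette, and 1 of the 2, *Calr3*, is counted again among the chaperones. *Calr3*, a testis calreticulin of the endoplasmic reticulum that helps fold proteins for fertilization, was at 164, 169 and 157 in elongating and 17.97, 6.03 and 12.8 in pachytene RNPs (chr8:74948075-74967769), a log2 change of 3.75 ± 0.45 (limma adjusted p = 0.0329). *Kif17*, a kinesin motor that partners the transcriptional coactivator ACT in spermatids, was at 112, 89.5 and 64.8 against 16.8, 3.19 and 10.4 (adjusted p = 0.04996). *Calr3* had nearly equal values in the elongating libraries. The tubulin mRNAs of the same list overlapped between groups, *Tuba3b* being at 367 to 430 in elongating and 169 to 517 in pachytene RNPs, and near-identical tubulin genes could share reads.

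Acrosome genes, whose products fill or line the vesicle used in fertilization, had a median change of 1.36. Of 26 tested, 22 had a positive change, but none was called. Groups did not overlap and were higher in 15 of the 26, against 19.3% of all genes tested. *Adam5*, a sperm surface protein of the ADAM family, was at 366, 536 and 541 in elongating and 122, 55.3 and 115 in pachytene RNPs (limma adjusted p = 0.0597). *Acrv1*, an acrosomal matrix protein, was at 85.1, 133 and 131 against 50.7, 9.62 and 13.3 (adjusted p = 0.0775). *Tex101*, a germ cell surface protein, was the clearest exception, at 32.3, 33.9 and 29.5 against 72.8, 200.1 and 59.6. *Zpbp2*, a zona pellucida binding protein, overlapped between the groups, at 75.6 to 92.4 in elongating and 62.6 to 125 in pachytene RNPs.

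Kinases and signalling genes of spermatids gave the most calls of any list, 4 higher of 23 tested and none lower, with a median of 0.72. Over all genes tested 1.6% were called higher. *Tsks*, the substrate of the testis-specific serine kinases, was at 202, 204 and 244 in elongating and 37.4, 25.5 and 18.3 in pachytene RNPs, a log2 change of 3.01 ± 0.40 (limma adjusted p = 0.0329). *Prkcd*, protein kinase C delta, was at 67.0, 44.1 and 56.6 against 8.57, 2.80 and 4.15 (adjusted p = 0.0330). *Prkar2a*, the regulatory subunit of protein kinase A that docks on anchoring proteins, was at 81.2, 48.7 and 74.0 against 8.78, 10.3 and 3.14 (adjusted p = 0.0416). *Csnk1g2*, a casein kinase 1 gene, was the fourth, but its positive change became -0.61 with wholly annotated intron chains.

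*Akap1*, which anchors protein kinase A and mRNAs to mitochondria and is a gene the study names, rose as well. It was at 163, 191 and 154 in elongating and 24.6, 4.77 and 12.8 in pachytene RNPs (chr11:88692106-88725900), a change of 3.74 ± 0.57 (limma adjusted p = 0.0394). It was the only called gene among the 14 that the study names, of which 4 had groups that did not overlap and were higher and 3 were lower. Over all genes tested 1.6% were called higher, 19.3% did not overlap and were higher, and 12.7% were lower. *Ankrd5* (*Ankef1*), a gene for an ankyrin repeat protein, was at 85.9, 73.0 and 101 against 22.7, 3.56 and 12.8 (adjusted p = 0.0622). *Eif4h*, a helper of the translation initiation helicase, was at 56.6, 94.0 and 95.9 against 27.4, 26.3 and 15.2 (adjusted p = 0.0658). *Thoc7*, a subunit of the mRNA export complex THO, was at 18.7, 14.7 and 19.9 against 44.4, 26.4 and 43.0. *Drosha*, the nuclease that starts microRNA processing, ranged from 2.86 to 55.5 in elongating RNPs and from 2.93 to 18.7 in pachytene RNPs, so its groups overlapped widely.

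Ubiquitin conjugation marks proteins for removal, a process active as spermatids shed their cytoplasm. Of 43 genes of ubiquitin and proteasome tested, 2 rose and none fell, with a median of -0.22. *Ube2n*, a conjugating enzyme for K63-linked chains, was at 206, 144 and 148 in elongating and 33.3, 13.0 and 30.2 in pachytene RNPs (limma adjusted p = 0.0452). *Ube2j1*, a conjugating enzyme of the endoplasmic reticulum, was at 65.9, 85.1 and 68.9 against 19.5, 7.99 and 14.6 (adjusted p = 0.0484). The list as a whole leaned slightly the other way, with 17 positive changes of 43.

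Heat shock and folding genes did not move together. Of 29 chaperones tested, 1 rose, *Calr3*, and none fell, and the median was 0.28. *Hspa1l*, the testis member of the HSP70 family, was at 302, 229.6 and 192 in elongating and 31.0, 0 and 9.89 in pachytene RNPs (limma adjusted p = 0.0658). *Hspa8*, the constitutive HSP70, was at 33.4, 31.6 and 65.9 against 52.3, 611 and 34.4, so its high pachytene mean came from replicate 2. The sperm forms of energy enzymes were likewise uneven. *Gapdhs*, the glycolytic enzyme of the sperm tail, was at 211, 155 and 91.8 against 22.5, 5.50 and 45.6 (adjusted p = 0.0822), whereas *Ldhc*, the lactate dehydrogenase of germ cells, was already abundant in pachytene RNPs, at 1151, 1076 and 1298 in elongating and 1016, 312 and 597 in pachytene RNPs.

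**Figure D3:**
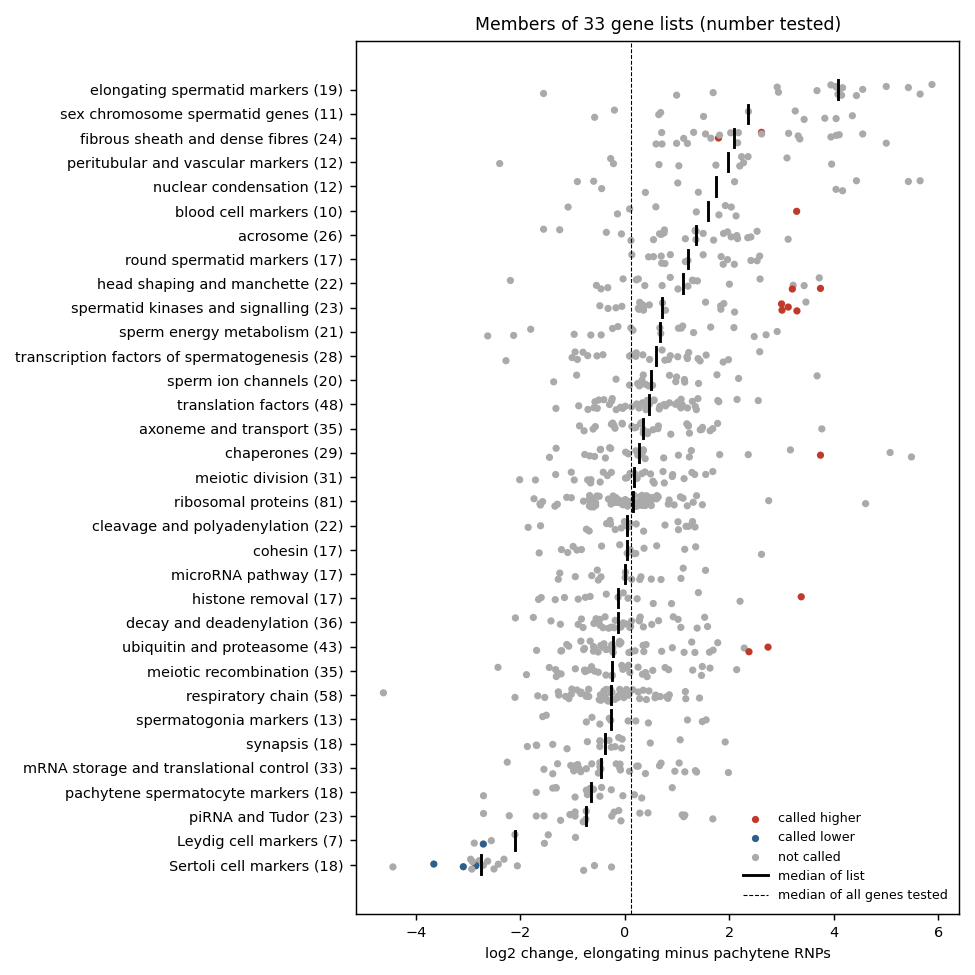
Each point is a tested member of 1 of 33 gene lists, placed by its log2 change (elongating minus pachytene RNPs), with the list's median as a black bar and the median of all genes tested as a dashed line. Lists of late spermatid function lie to the right, with medians of 4.08 for elongating spermatid markers and 2.09 for fibrous sheath and dense fibres. Peritubular and vascular markers (1.97) and blood cell markers (1.58) also lie to the right. Sertoli cell markers lie to the left at -2.75.

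No meiotic list held a called gene. None of 18 synapsis genes was called, 15 had a negative change and the median was -0.39. Groups did not overlap in 4 that were lower and 2 that were higher, against 12.7% and 19.3% of all genes tested. With factors over 18 libraries *Syce2* was higher, at 149, 116 and 134 in elongating and 47.4, 14.1 and 53.6 in pachytene RNPs. *Sycp3*, a lateral element of the synaptonemal complex, was at 24.6, 23.0 and 27.1 in elongating and 74.2, 94.0 and 41.6 in pachytene RNPs (limma adjusted p = 0.109). *Sycp1*, its transverse filament, was at 30.3, 48.9 and 50.9 against 93.9, 157 and 13.6, and pachytene RNP replicate 3 was below every elongating library. Of 35 recombination genes tested none was called, with 20 negative changes and a median of -0.24. Pachytene spermatocyte markers, 18 genes tested, had 15 negative changes and a median of -0.65. Groups did not overlap and were lower in 3 of the 18, against 12.7% of all genes tested.

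The piRNA pathway silences transposons and shapes the chromatoid body, a granule of germ cells. Of its 23 tested genes none was called and 17 had a negative change, with a median of -0.75. *Piwil1* (MIWI), the Piwi protein of pachytene cells and round spermatids, was at 5.61, 4.70 and 5.30 in elongating and 29.3, 103 and 19.9 in pachytene RNPs (limma adjusted p = 0.0656). *Piwil2* (MILI) was at 5.85, 6.27 and 11.6 against 47.3, 122 and 9.46. *Tdrd5* and *Fkbp6*, further factors of the pathway, were at 4.45 to 12.4 and 7.79 to 9.65 in elongating RNPs and at 7.06 to 31.3 and 11.6 to 39.7 in pachytene RNPs. *Mael*, a germ granule protein, lay the other way, at 482, 508 and 646 against 244, 91.5 and 210.1, but its change of 1.68 was -7.40 for wholly annotated intron chains.

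The proteins that store and translate mRNA were themselves encoded by mRNAs in both groups. Of 33 storage and translational control genes tested none was called, 12 had a positive and 21 a negative change, and the median was -0.46. Groups did not overlap in 5 that were higher and 4 that were lower, against 19.3% and 12.7% of all genes tested. *Ybx2* and *Fxr1*, given next, lay against the median of the list. *Ybx2*, the Y-box protein that packages stored mRNA in germ cells, was at 217, 176 and 243 in elongating and 129, 83.9 and 116 in pachytene RNPs (limma adjusted p = 0.214). *Fxr1*, an RNA-binding protein with a role in activating translation in spermatids, was at 281, 207 and 198 against 83.5, 51.4 and 41.9 (adjusted p = 0.0625). *Pabpc1*, the poly(A)-binding protein, overlapped between the groups, at 106 to 157 and 101 to 175.

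Of 48 translation factors tested none was called and 34 had a positive change, with a median of 0.46. *Eef1d*, an exchange factor of elongation, was at 298, 194 and 263 in elongating and 81.3, 34.8 and 24.8 in pachytene RNPs (limma adjusted p = 0.0583), and *Eif4g1*, the scaffold of the cap complex, at 208, 159.8 and 176 against 45.3, 83.4 and 16.5 (adjusted p = 0.0979). *Eef1a1*, the abundant elongation factor, was at 461, 399.9 and 542 against 597, 696 and 444. Ribosomal protein genes, which have many processed copies that could share reads, had a median of 0.16 over 81 genes with no call. Respiratory chain genes had a median of -0.26 over 58 with no call. Groups did not overlap in 16 of the 58 that were lower and 1 that was higher, against 12.7% and 19.3% of all genes tested. *Cox6c*, a small subunit of cytochrome c oxidase, was at 122, 83.9 and 123 against 231, 150.4 and 246.

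Further lists without a call were decay and deadenylation (36 tested, median -0.13), the microRNA pathway (17 tested, median 0.01), cleavage and polyadenylation (22 tested, median 0.05), cohesin (17 tested, median 0.04), meiotic division (31 tested, median 0.18), axoneme and transport (35 tested, median 0.35), sperm ion channels (20 tested, median 0.49) and sperm energy metabolism (21 tested, median 0.67). In the last 3 of these, 11, 5 and 8 genes had groups that did not overlap and were higher, and 1, 1 and 3 were lower, against 19.3% higher and 12.7% lower over all genes tested. Round spermatid markers had a positive change in 17 of 17 tested, with a median of 1.21.

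Among genes that fell, 17 of the 25 were listed at 0 in all 3 elongating libraries. *Ost4*, a very small subunit of the oligosaccharyltransferase, was at 68.2, 46.0 and 107 in pachytene RNPs and listed at 0 in elongating RNPs (limma adjusted p = 0.0220). *Mrpl27*, a mitochondrial ribosomal protein, was at 7.85, 13.8 and 9.07 in pachytene RNPs and also listed at 0. No fold is given for such genes.

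The genes that fell with values in every library can be given as folds. *Calm2*, 1 of the calmodulin genes, went from 333, 298 and 162 in pachytene to 37.3, 36.6 and 40.1 in elongating RNPs (chr17:87832752-87846275), a log2 change of -2.70 ± 0.42 (limma adjusted p = 0.0394). *Cks2*, a subunit of cyclin-dependent kinases needed in meiosis, went from 61.8, 53.0 and 81.5 to 7.40, 7.43 and 4.75, a change of -3.14 ± 0.37 (adjusted p = 0.0329). The elongating values lay close together for both genes.

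Sertoli cell genes formed the largest list among those that fell. Of 18 markers tested 3 fell, all 18 had a negative change and 14 had groups that did not overlap. Over all genes tested 0.229% fell and 12.7% did not overlap and were lower. *Defb19*, a defensin of Sertoli cells, went from 141, 314 and 169 in pachytene to 24.2, 23.6 and 18.7 in elongating RNPs, a log2 change of -3.09 ± 0.43 (limma adjusted p = 0.0330). *Cst9* and *Cst12*, cystatins of the same cells, fell by 3.66 and 2.85 on the log2 scale. *Clu*, clusterin, a gene the study names and an abundant product of Sertoli cells, was at 126, 785 and 44.2 against 6.98, 7.06 and 5.82 (adjusted p = 0.0628). Its pachytene values differ by more than an order of magnitude, with replicate 2 the highest.

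Other somatic markers did not all follow. Of 7 Leydig cell markers tested, 1 fell, against 0.229% of all genes tested. It was *Star* of steroid synthesis, at 4.09, 6.98 and 5.88 in pachytene RNPs and listed at 0 in elongating RNPs. Of 12 peritubular and vascular markers tested none was called, 9 had a positive change and the median was 1.97. Groups did not overlap in 3 that were higher and 1 that was lower, against 19.3% and 12.7% of all genes tested. *Actg2*, a smooth muscle actin gene, was at 98.8, 83.4 and 97.5 in elongating and 16.4, 0 and 11.7 in pachytene RNPs (limma adjusted p = 0.0839). Like the summed spermatid markers, it was lowest in pachytene RNP replicate 2, and whether its RNA came from somatic cells was not tested. *Sparc*, another of these markers, lay the other way. With factors over 18 libraries it was at 5.24 to 15.5 in elongating and 16.8 to 210.5 in pachytene RNPs. Of 10 blood cell markers tested 1 rose and 8 had a positive change, with a median of 1.58. Groups did not overlap in 5 that were higher and 1 that was lower. The gene that rose was *Cd74*, the invariant chain of class II antigen presentation. It was at 7.24, 7.82 and 11.9 in elongating RNPs and listed at 0 in all 3 pachytene libraries. Of 13 spermatogonial markers tested none was called, with 7 negative changes.

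The sex chromosomes are silenced in pachytene cells, and some of their genes are expressed again in spermatids. Of 328 X-linked genes tested 7 rose and 1 fell, shares near the 1.6% and 0.229% of all genes, 215 had a positive change and the median was 0.46, against 0.12 over all genes. Genes of the X chromosome had lower levels than the rest in both groups, with a median of 5.62 in elongating and 4.83 in pachytene RNPs, against 8.17 and 8.82 over all genes tested. Of 11 tested genes listed as spermatid genes of the sex chromosomes, 9 had a positive change, with a median of 2.37 and no call. Groups did not overlap and were higher in 7, against 19.3% of all genes tested. *Tsga8*, an X-linked gene of haploid cells, was at 179.6, 235 and 271 in elongating and 100.3, 20.6 and 37.4 in pachytene RNPs (limma adjusted p = 0.0822). Of 8 Y-linked genes tested 1 rose and 7 had a positive change.

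RNAs annotated as processed transcripts, which have no open reading frame assigned were frequent among the genes that rose. Of 252 tested 24 rose and none fell, 119 had groups that did not overlap and were higher, and the median was 1.62. Over all genes tested 1.6% rose and 19.3% did not overlap and were higher. Of 153 lincRNAs tested 3 rose and the median was 0.54, and of 10491 protein-coding genes 147 rose and 25 fell, with a median of 0.10. *D830044I16Rik*, a lincRNA, was at 123, 103 and 99.1 in elongating and 23.1, 7.33 and 17.2 in pachytene RNPs (limma adjusted p = 0.0446). *Gm16231*, a processed transcript, was at 25.5, 14.9 and 18.9 and listed at 0 in pachytene RNPs. No test of the difference between classes was made.

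Many genes of round spermatids are switched on through the cyclic AMP response element, TGACGTCA, which the factor CREM binds. *Crem* itself was at 47.2, 61.8 and 69.7 in elongating and 65.6, 14.8 and 32.3 in pachytene RNPs. *Fhl5*, its coactivator ACT, was at 78.8, 65.7 and 60.2 against 17.3, 4.55 and 14 (limma adjusted p = 0.0556). The 8 letters were searched in RefSeq promoters of GRCm38.p6, from 250 bases before to 50 after each start, and since the sequence is its own reverse complement 1 search covers both strands. The element was in the promoter of 9 of the 120 genes that rose and had a promoter (7.5%), in 0 of 14 that fell, in 307 of 7767 genes tested (3.95%) and in 588 of 32851 promoters (1.79%). A match is a description of these letters and not of binding.

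Windows of 30 bases are shown for some of the 9 genes that rose with the element. They place the element in genes that share a change, and are in 5′ to 3′ orientation of the gene with the element in capitals. *Kif17* lies at chr4:138262154-138262183 (plus strand), *Fam187b* at chr7:30977003-30977032 (plus strand), *Cdc14b* at chr13:64275031-64275060 (minus strand), *Ppm1a* at chr12:72761064-72761093 (plus strand) and *Pdzd8* at chr19:59345870-59345899 (minus strand), all of GRCm38.p6.
*Kif17*: attccgtcctgTGACGTCAcggaggttgcc
*Fam187b*: agttctgtgggTGACGTCAcagtacccaag
*Cdc14b*: ctccagttgcgTGACGTCAcgccgcactga
*Ppm1a*: gcgcagggcagTGACGTCAccgccgcccct
*Pdzd8*: cgcgcacgctcTGACGTCAcgcgccgctcg

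These 5 genes rose by 3.21, 3.46, 2.68, 2.65 and 3.29 on the log2 scale, in the order printed. The element started 46 bases before the annotated start in *Fam187b*, 61 in *Cdc14b*, 86 in *Kif17*, 108 in *Pdzd8* and 136 in *Ppm1a*. In genes not printed it started 46 bases before in *Csnk1g2* and 51 in *4930412O13Rik*, but 19 after the start in *Osbpl9*. In *Gm11608* it lay 39 bases after 1 annotated start and 44 before another.

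Single mRNAs were compared through transcripts whose whole intron chain equals that of an annotated protein-coding mRNA. Of 5174 such mRNAs 129 rose (2.49%) and 135 fell (2.61%) in elongating RNPs by limma. Of those that fell, 129 were listed at 0 in every elongating library, and of those that rose, 83 were listed at 0 in every pachytene library. Of the 135 that fell, 117 belong to genes with a value in all 6 libraries, and 84 to genes whose own change was positive. Most of the falls thus mark an annotated intron chain that was assembled in 1 group only while other transcripts of the gene were assembled in both.

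The *Akap4* mRNA with the annotated 3′ UTR of 172 nucleotides (nt) was at 713, 416 and 540.0 in elongating RNPs and listed at 0 in pachytene RNPs, where the gene had 5.49 to 175. A *Gpx4* mRNA with a 3′ UTR of 221 nt was at 1044, 1273 and 1320 and also listed at 0 in pachytene RNPs. The annotated *Clu* mRNA fell, from 108, 785 and 44.2 to 0, 0 and 5.82. In 20 mRNAs that rose and 5 that fell, every library had a value. *Cdc34*, a ubiquitin-conjugating enzyme, had such an mRNA at 163, 145 and 102 against 28.3, 19.2 and 25.5, and *Slc30a4*, a zinc transporter, at 44.9, 32.9 and 33.3 against 4.21, 6.49 and 3.72. *Ssna1*, a protein of centrosomes, fell from 21.3, 25.8 and 28.9 to 4.49, 4.62 and 7.07.

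In 3 genes 1 annotated mRNA rose while another fell. *Tmsb10*, thymosin beta 10, which binds actin monomers, had an mRNA with a 3′ UTR of 257 nt at 222, 200.4 and 208 in elongating RNPs and 0 in pachytene RNPs. Its mRNA with a 3′ UTR of 271 nt was at 0 in elongating RNPs and at 114, 33.4 and 187 in pachytene RNPs. The mRNAs of *Rnf138*, a ubiquitin ligase, have the same 3′ UTR of 2069 nt and differ elsewhere, and those of *Rps2*, a ribosomal protein with many copies, have 46 and 43 nt. The exchange in *Tmsb10* therefore moved the 3′ UTR by little.

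The series asks about 3′ UTR length, since elements in the 3′ UTR set the storage and translation of mRNA. Weighted by FPKM, the geometric mean 3′ UTR of annotated mRNAs was 221, 267 and 285 nt in the elongating libraries and 330.2, 455 and 303 nt in the pachytene libraries. The groups did not overlap, and the mean was 256 nt in elongating and 357 nt in pachytene RNPs, a log2 difference of -0.48 (exact permutation test over libraries, two-sided, p = 0.1, the smallest that 3 against 3 allows). The longest value was in pachytene RNP replicate 2, the library with the highest *Clu*. Abundant mRNAs weigh most in this measure, so it need not describe most mRNAs. Summed levels of the nuclear condensation list were 29107, 9634 and 7617 in elongating and 1920, 329 and 991 in pachytene RNPs. Those of ribosomal protein genes were 25656, 12529 and 10989 against 11085, 9152 and 17795. Their part in the difference was not tested.

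Within genes the difference was smaller. Lengths here and above are those of the annotation, taking the longest 3′ UTR where annotated mRNAs share an intron chain. Ends that differ only within the last exon are therefore not seen, and neither measure covers shortening there. In 157 genes with annotated mRNAs at least 50 nt apart in 3′ UTR length, the log2 length relative to each gene's mean was -0.13, -0.08 and -0.04 in the elongating and -0.02, 0.26 and -0.003 in the pachytene libraries. The difference of -0.16 on the log2 scale (exact permutation p = 0.1) was -0.07 without pachytene RNP replicate 2. Without the same library the difference of the weighted length was -0.30. Both measures kept their direction without it and were smaller by more than 1.5 times.

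The change was then read by 3′ UTR length. Of 1379 mRNAs with at most 250 nt, 24.7% had groups that did not overlap and were higher in elongating RNPs, and 11.5% were lower, with a median log2 change of 0.34. Of 987 with 501 to 1000 nt, 10.3% were higher and 17.8% lower, with a median of -0.42. Above 2000 nt the shares were 12.8% and 12.1%, with a median of -0.07. The mRNAs called higher had a median 3′ UTR of 442 nt and those called lower 652 nt, against 638 nt over all tested. Among 1336 mRNAs assembled in all 6 libraries, the median was 417 nt for the 300 whose groups did not overlap and were higher and 682.5 nt for the 282 that were lower. No test was made over transcripts.

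**Figure D4:**
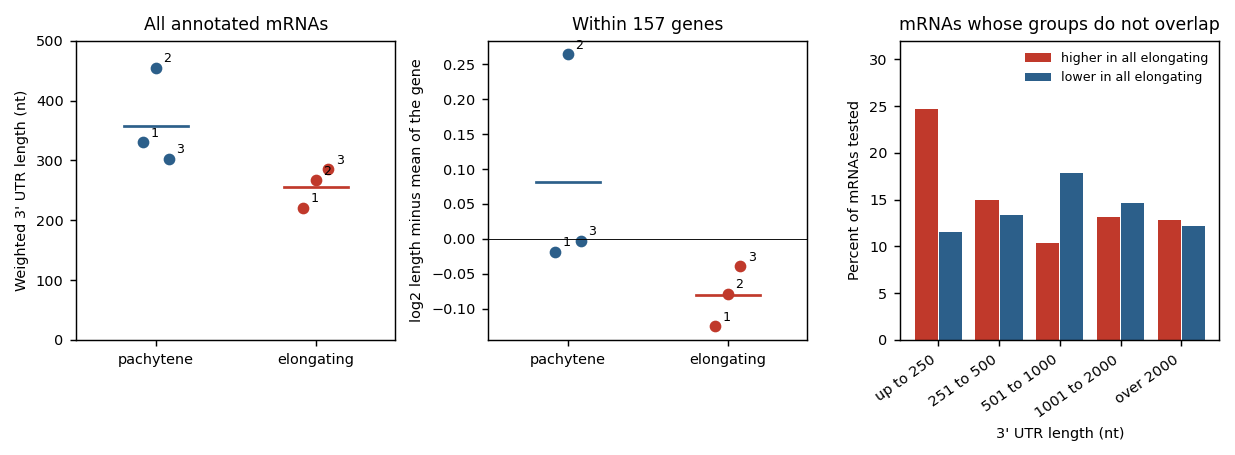
Left, FPKM-weighted 3′ UTR length in nt per library (numbers are replicates, lines group means). Middle, log2 length relative to the gene's mean in 157 genes. Right, percent of tested mRNAs in each 3′ UTR length class whose groups do not overlap, higher (red) or lower (blue) in elongating RNPs. The 3 elongating libraries lie at 221 to 285 nt and the 3 pachytene libraries at 303 to 455 nt, and the class of up to 250 nt has 24.7% higher.

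The same genes were then read in the polysome libraries of the same cell types, which did not choose the calls but may share cell preparations with them. With factors over all 18 libraries, 167 of the 175 genes that rose in RNPs were also higher in elongating than in pachytene polysomes, and 141 of them without overlap (80.6%), against 23.0% of all genes tested. Of the 25 that fell, 22 were lower in polysomes and 19 without overlap (76%), against 17.95% of all genes. The median difference of the genes that rose was 3.43 in RNPs and 2.85 in polysomes, and of those that fell -3.31 and -2.61. The interaction of cell type and fraction was called in 3 of 13212 genes (limma, 2 higher, 0.0151%, and 1 lower, 0.00757%), with 620 at an unadjusted p under 0.05 (4.69%). With each cell type and replicate number as a block, added after seeing the data, limma called 0 genes, with 746 at an unadjusted p under 0.05.

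*Calr3* was at 245, 248 and 230.3 in elongating RNPs and 299, 243 and 190.7 in elongating polysomes on this scaling, and at 26.5, 8.51 and 18.7 in pachytene RNPs and 16.7, 2.40 and 38.9 in pachytene polysomes. *Prm1* was at 19404, 7955 and 6484 in elongating RNPs and at 839, 657 and 0 in elongating polysomes, and its change from pachytene cells differed between the fractions by 3.93 ± 3.36 on the log2 scale (limma adjusted p = 0.999). With same-numbered libraries of a cell type as a block the difference was 3.93 ± 2.14 (adjusted p = 0.922), so neither fit called it. *Tnp2* was at 6321, 2445 and 1365 in elongating RNPs and 3775, 1490 and 1992 in elongating polysomes. *Prm2* was at 10002, 1072 and 1502 in elongating RNPs and 0, 564 and 1534 in elongating polysomes. The *Prm1* libraries did not overlap between the elongating fractions, and those of *Prm2* and *Tnp2* did. The listed 0 of *Prm1* is in elongating polysome replicate 3, where *Prm2* was at 1534 and *Tnp2* at 1992.

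**Figure D5:**
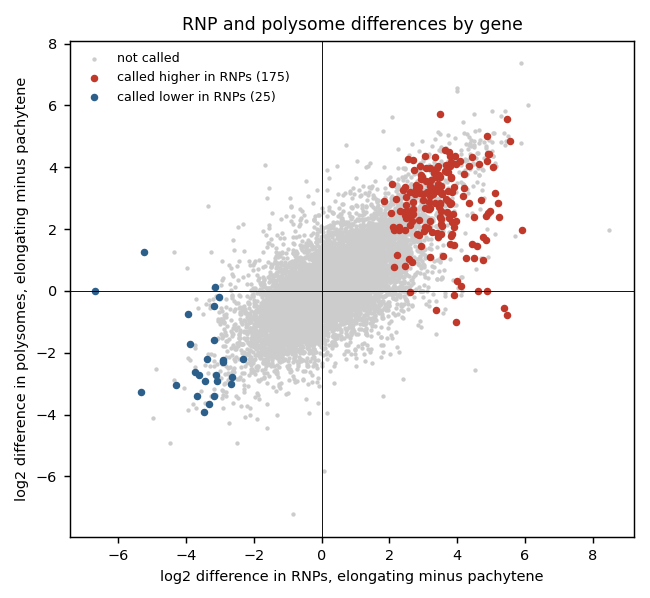
Each point is a gene tested in RNPs, with its log2 difference, elongating minus pachytene, in RNPs on the x axis and in polysomes on the y axis (scaled FPKM plus 1, factors over 18 libraries). Of the 175 genes called higher in RNPs (red) 167 lie above 0 in polysomes, and of the 25 called lower (blue) 22 lie below 0.

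Round spermatids lie between the compared stages, and their RNP libraries did not enter the calls. The median level of the 175 genes that rose was 75.6, 57.2 and 70.8 in elongating RNPs, 28.7, 4.15 and 15.7 in round RNPs and 10.5, 4.63 and 7.02 in pachytene RNPs. Round RNP replicates 1 and 3 lie between the other groups, and round RNP replicate 2 is at the pachytene level. In that library *Clu* was at 827 and *Odf1* at 0, against 21.8 and 377 in round RNP replicate 1, so it went against its label in the same direction for both genes. *Calr3* was at 115, 9.52 and 80.5 in round RNPs and *Akap1* at 98.1, 6.55 and 42.2.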

How the data were processed

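RNA of the RNP and polysome fractions was sequenced as stranded total RNA, partly in single and partly in paired reads. Per the submitters' notes and methods, reads were cleaned (FASTX-Toolkit), placed on the mm9 genome by TopHat2 and assembled by Cufflinks, 1 library at a time. Versions are not given in the sources used here. The deposited files hold the authors' FPKM per assembled transcript in an attribute field, with no scaling between libraries and no counts, so depth is unknown. Coverage per FPKM, which rises with depth and read length, was 1.20 (pachytene RNP replicate 3) to 2.26 (elongating RNP replicate 3) in the 6 libraries, which held 26773 to 50480 transcripts.

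Transcripts were matched to GENCODE vM1. Library factors were median ratios over 7407 genes with FPKM above 1 in all 6 libraries. Genes reaching a scaled FPKM of 1 in 3 or more libraries entered limma 3.58.1 (R 4.3.3, trend) on log2(scaled FPKM + 1), a scale that understates changes of low genes, two-sided, with Benjamini-Hochberg adjustment. Scripts used Python 3.11.15 with scipy 1.17.1. In simulated data on 10907 genes of this comparison, limma called 0 of 50 genes changed 2-fold and 1 of 50 at 4-fold. It called 29 of 50 at 8-fold, 42 of 50 at 16-fold and 1 unchanged gene. The changed genes had a mean log2 value above 2, and each gene had 1 normal spread for both groups. The real pachytene libraries spread more than the elongating libraries, and many called genes had a group at 0. The simulated rates therefore need not hold for the real comparison. Alternatives were other scalings, filters, pseudocounts, thresholds, library sets, weights, a replicate block, gene values, length measures and leaving out each library. A count that weights transcripts by assembled length and a block within cell type were chosen after seeing the data.

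The comparison, the gene lists and the rule for named genes were chosen with earlier results of these data known. The rule takes genes the study names, up to 12 called genes per direction with the largest change, a mean of at least 10 and no overlap, up to 6 members of each list by level and up to 3 called members per direction, and up to 3 pairs of mRNAs. A gene that the rule takes is not reported here. Genes named outside it were chosen after their values were seen.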

Additional observations from a re-analysis of the deposited data

Results flagged for a closer look

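In 3 genes the change from pachytene to elongating cells differed between RNPs and polysomes by the interaction term of limma. *Ost4* had a log2 difference of -6.66 between the changes (adjusted p = 0.00325): it was at 100.4, 64.9 and 157 in pachytene RNPs, with factors over 18 libraries, and listed at 0 in the pachytene and elongating polysomes and in elongating RNPs. *Ralyl*, a gene for an RNA-binding protein, had a difference of 4.85 (adjusted p = 0.0117), at 25.5, 21.8 and 41.5 in elongating RNPs and listed at 0 in pachytene RNPs and in all 6 polysome libraries. *AY358078* had a difference of 6.37 (adjusted p = 0.00427), at 1086, 345 and 1249 in pachytene polysomes, 6.27, 4.05 and 2.90 in elongating polysomes, 13.4, 13.5 and 19.6 in pachytene RNPs and 10.1, 6.17 and 8.25 in elongating RNPs. With a block for same-numbered libraries of a cell type the adjusted p values were 0.0958, 0.318 and 0.0618, so no call held. The sizes of *Ost4* and *Ralyl* depend on the value added before the logarithm, since groups are listed at 0.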

How the results depend on the processing

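Counts are given as higher and lower in elongating RNPs. For genes (175 and 25) they were 962 and 325 with 12 libraries, 327 and 92 with 18, 20 and 4 as deposited, 77 and 10 without a filter, 23 and 9 with quantile normalization (median change 0.00 against 0.12), 110 and 104 for whole intron chains, 1095 and 503 weighted by length, and 0 and 0 at an adjusted p under 0.01. The lower count was 15 with an FPKM of at least 5 and 74 with a pseudocount of 0.1. Leaving out 1 library gave 0 to 661 and 0 to 100. For annotated mRNAs (129 and 135) they were 50 and 49 with 18 libraries, 18 and 18 as deposited, 23 and 33 without a filter, 10 and 8 at the stricter threshold, and 0 to 295 and 0 to 27 without 1 library. Genes whose change differed between fractions (3) were 7 as deposited, 14 with a pseudocount of 0.1, and 2 to 7 without 1 library. The cause was not tested.

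With a replicate block limma called 0 and 0 genes (2213 at an unadjusted p under 0.05) and 2 and 0 mRNAs. Same-numbered libraries did not deviate together (r = 0.02, 0.02 and -0.07), so the numbers give no pairing. A replicate block within cell type, added after seeing the data, left 0 of the 3 genes whose change differed between fractions. Same-numbered RNP and polysome libraries deviated with r of 0.39, 0.34 and -0.06 in pachytene and 0.06, 0.03 and 0.01 in elongating cells.

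For whole intron chains the change reversed to -4.91 in *Efcab10*, -2.45 in *Lin52*, -0.18 in *Cdyl*, -4.19 in *Hk1*, -0.61 in *Csnk1g2*, -5.28 in *Catsper2* and in *Rpa1*, -7.40 in *Mael* and -7.68 in *Eef2*. The 3′ UTR differences kept their sign in every alternative, at -0.60 to -0.30 (weighted) and -0.21 to -0.07 (within genes) without 1 library. Unknown depth, assembly in each library alone and uneven pachytene libraries limit what low genes can show.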
